A study of Daphnia magna with 56 samples.

Results

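The 31 transcripts described here fell in level with increasing gamma dose rate after 8 days and again after 4 days of exposure, in whole bodies of the water flea Daphnia magna. They were picked from 23570 RefSeq transcript records by their measured values. The level of each record was taken as CPM, its read count scaled to a common library total. A Spearman correlation of log2(CPM + 0.5) with the rank of the dose rate, from 0 to 6, was computed over the 28 libraries of each day, and a member had a correlation of -0.4 or lower on both days. A member also had a mean of 5 to 1000 CPM over all 56 libraries, and in unirradiated animals its day 8 and day 4 levels differed by less than 1 on the log2 scale. Of 7454 records in that range of CPM, 6379 also met the limit on the day difference and are called eligible records below. Because the correlations chose the members, differences between dose rates within a day are descriptions, and counts of test calls on them are given only beside the same share over all transcripts, with nothing read from them.

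All animals were females of the WT genotype, kept in M7 medium and sampled whole as juveniles. The irradiated groups received gamma radiation at 0.4, 1, 4, 10, 40 or 100 mGy/h, and the unirradiated group received 0 mGy/h. Animals were 8 days old after 8 days of exposure and 4 days old after 4 days, so age and length of exposure cannot be told apart. Each of the 14 groups had 4 libraries. The labels do not say whether replicates came from separate cultures or how many animals were pooled, so p-values measure the spread between these samples, which may be technical. In a whole body, fewer cells of a type and less RNA per cell cannot be told apart.

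Daphnia is a freshwater crustacean that grows through repeated moults and, in culture, reproduces without males. Young females begin to supply their ovaries with yolk as they approach their earliest brood. Gamma rays ionise water and biomolecules along their path, which breaks DNA strands directly and through short-lived radicals, and animal cells are known to answer such damage with repair, a halt of the cell cycle or death.

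Total counts ran from 14032254 to 14986499 per library on day 8 and from 13285376 to 14243541 on day 4. The 10 records with the most counts summed over all 56 libraries held a median of 24.2% of a library's counts on day 8, against 7.71% on day 4. These are the same 10 records on both days, not the most abundant of each library. Day 4 libraries fell into 20 with totals up to 13625826 and 8 with totals from 13955640. The larger class held all 4 libraries at 10 mGy/h, 2 at 40, 1 at 100 and 1 at 0 mGy/h, and none at 0.4, 1 or 4 mGy/h. Class and dose rate were thus partly tied on day 4.

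Falling on both days was uncommon. Of the 6379 eligible records, 905 met the correlation limit on day 8, which is 14.2%, and 307 met it on day 4, which is 4.81%. The 31 that met both were 3.43% of the day 8 fallers and 10.1% of the day 4 fallers, so the share of day 4 fallers that also fell on day 8 (10.1%) was not above the share of all eligible records that did (14.2%). A further 20 eligible records fell on day 4 and rose on day 8, 28 rose on day 4 and fell on day 8, and 19 rose on both days. Those 19 were 10.7% of the day 4 risers, while 4.53% of all eligible records rose on day 8. Among members, day 8 correlations ran from -0.74 to -0.42 with a median of -0.53, and day 4 correlations from -0.66 to -0.41 with a median of -0.47. The day 8 value was the more negative in 20 members and the day 4 value in 11.

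**Figure D1:**
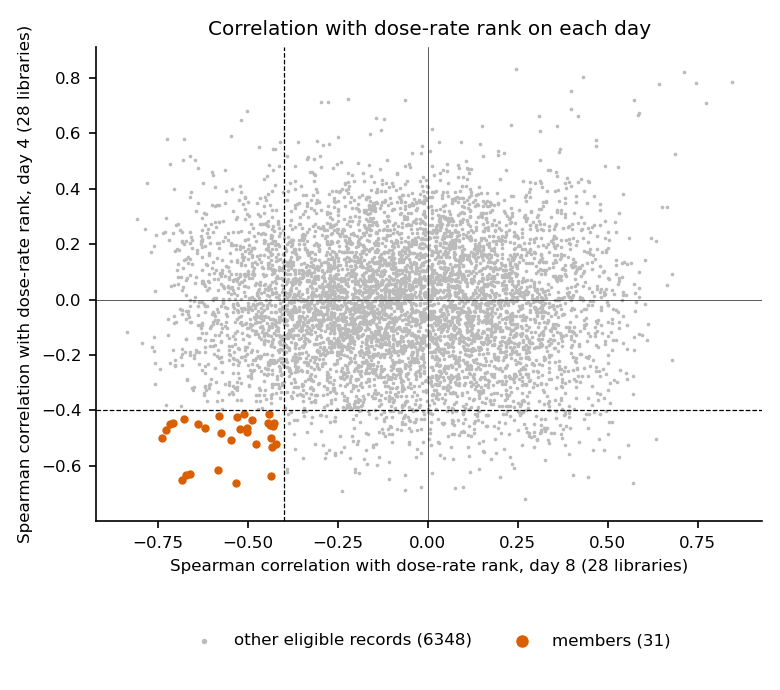
Each point is a record that met the limits on level and day difference, placed by its Spearman correlation with dose-rate rank over 28 libraries on day 8 (horizontal axis) and on day 4 (vertical axis). Dashed lines mark -0.4 on each day, and the 31 members, in orange, fill the lower left corner that these lines fix.

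The members are known by record number only, or by a LOC symbol where the RefSeq annotation of assembly ASM2063170v1.1 matched the record. A symbol was found for 14 members, all annotated as protein-coding, and for none of the other 17. The table used held no descriptions, so no function is given to any member. The 14 genes lay on 9 linkage groups, with 3 on LG1, 3 on LG4 and 2 on LG7. No member shared its symbol with another record, and no member's gene was the neighbour of another's. The closest were LOC116927834 and LOC116927844 on LG7, with 10 annotated genes between them. All 31 members were detected in all 56 libraries, the smallest count of any was 48, and all passed the filter on low counts used for the fits. Mean levels ran from 5.06 to 463 CPM with a median of 47.98 CPM. Levels are not scaled to transcript length, so they are not compared between members.

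The fall was small on both days and larger on day 8. On TMM-scaled libraries, the edgeR log2 fold change of 100 against 0 mGy/h had a median over members of -0.29 on day 8, with a range from -0.80 to -0.04, against a median of 0.02 over all 9367 transcripts tested. On day 4 the members' median was -0.14, with a range from -0.39 to -0.04, against 0.00 over all 9369 tested. The day 8 fold change was the more negative in 27 members and the day 4 one in 4, and the difference between the days was not tested. The same correlation limit was set on both days, and a correlation of a given size takes a larger fall where replicates vary more. The members' median SD within groups, on the log2 CPM scale, was 0.14 on day 8 and 0.07 on day 4. Nothing is therefore read from the larger fall on day 8. A fold change of -0.5 or lower was seen in 4 members on day 8 and in none on day 4. As mean CPM, the level at 100 mGy/h was lower than at 0 mGy/h by a median of 22.2% on day 8 and of 10.3% on day 4.

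The plot of the change at 100 mGy/h sets the days side by side for each member, and most members lie above its diagonal.

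**Figure D2:**
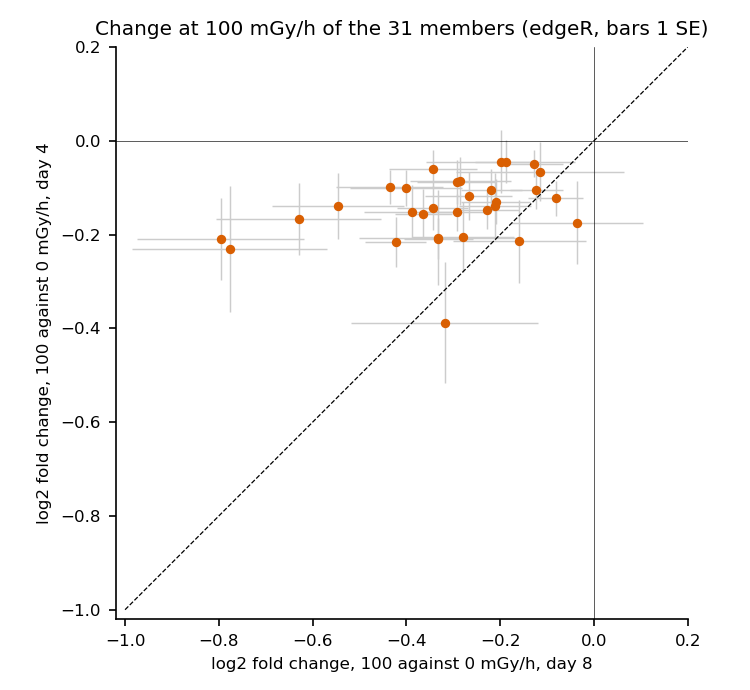
Each point is a member, placed by its edgeR log2 fold change of 100 against 0 mGy/h on day 8 (horizontal axis) and day 4 (vertical axis), with bars of 1 standard error and 4 libraries per group. All 31 members lie below 0 on both axes, which the choice of members favours, and 27 lie above the dashed line of equal change because their day 8 fold change is the more negative.

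Counts of members called by edgeR's quasi-likelihood test, at a Benjamini-Hochberg adjusted p under 0.05 over all transcripts, are given with the same share over all transcripts, and nothing is read from them since the same libraries chose the members. A falling slope on dose-rate rank was called for 15 of 31 members on day 8, where 3.28% of all transcripts had one, and for 2 on day 4, where 0.149% did. Those 2 were XM_032938957.1 and XM_032942010.1. No member was called without the fourth 100 mGy/h library of day 4, and only 1 member was called without each of 19 other libraries. Across the fits that left out a library, 3 calls were of members other than these 2. Over all transcripts 14 falling slopes were called on day 4, and 7 without that 100 mGy/h library. A lower level at 100 than at 0 mGy/h was called for 11 members on day 8, against 1.4% of all transcripts, and for 1 on day 4, XM_032923053.1, against 0.203%. That day 4 count was 0 without control library 1 or 100 mGy/h library 3, 2 without 0.4 mGy/h library 1 or 100 mGy/h library 2, and 3 without 100 mGy/h library 1. The number of all transcripts called lower there was 19 with every library, and 12, 14, 21, 20 and 28 in these 5 fits. The day 8 count of 11 members moved with single libraries, as did the 131 called lower over all transcripts. It was 2 members of 16 transcripts without control library 1, 2 of 26 without control library 2, 2 of 39 without 100 mGy/h library 2 and 2 of 23 without 100 mGy/h library 4. It was 4 members of 41 transcripts without control library 4, 6 of 57 without 100 mGy/h library 1, 7 of 80 without 100 mGy/h library 3, and 17 of 281 without 10 mGy/h library 3. The day 8 slope was called falling for 15 members of 307 transcripts with every library, against 9 of 123 without 100 mGy/h library 3 and 9 of 115 without 100 mGy/h library 4.

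At lower dose rates XM_032926274.1 was called lower at 10 mGy/h on day 4, where 0.16% of all transcripts were. No member was called by edgeR at the other dose rates, where the shares of all transcripts called lower on day 4 were 0.032% at 0.4, 0.224% at 1, 0.0427% at 4 and 0.0213% at 40 mGy/h. On day 8 the share called lower was 0.0427% at 1 mGy/h and 0% at 0.4, 4, 10 and 40 mGy/h, with no member among them. At an unadjusted p under 0.05 in edgeR, 9 members were lower at 40 mGy/h on day 8, against 2.06% of all transcripts. None was past it at 0.4, 1, 4 or 10 mGy/h on day 8, where 4.81%, 9.49%, 2.94% and 2.68% of all transcripts were, in either direction. On day 4 the unadjusted counts of members in either direction were 1 at 0.4, 5 at 1, 3 at 4, 15 at 10 and 15 at 40 mGy/h, against 13.3%, 15.03%, 11.3%, 14.05% and 9.83% of all transcripts.

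The 31 levels were also summed in each library. On day 8 the sum was 1721, 1546, 1640 and 1586 CPM at 100 mGy/h, against 2324, 2097, 2099 and 2057 CPM at 0 mGy/h. The day 4 sums were 2115, 2010, 2076 and 2033 CPM at 100 mGy/h, against 2286, 2272, 2261 and 2248 CPM at 0 mGy/h. The groups at 100 and 0 mGy/h did not overlap on either day, which the choice of members favours. Across dose rates on day 8 the mean sum was 2144 ± 121 CPM at 0, 2043 ± 88.6 at 0.4, 1979 ± 58.8 at 1, 2026 ± 212 at 4, 1981 ± 205 at 10, 1789 ± 73.9 at 40 and 1623 ± 75.9 CPM at 100 mGy/h (mean ± SD of 4 libraries). The day 4 means were 2267 ± 16.5 CPM at 0, 2240 ± 32.7 at 0.4, 2180 ± 27.8 at 1, 2248 ± 19.7 at 4, 2126 ± 66.3 at 10, 2123 ± 49.8 at 40 and 2059 ± 46.5 CPM at 100 mGy/h. Neighbouring dose rates from 0.4 to 10 mGy/h on day 8 differed by less than the larger of their SDs, and the sums at 4 and 10 mGy/h were the most spread of all groups.

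Member by member, the lowest mean was mostly at 100 or 40 mGy/h, less so on day 4. The choice of members favours this, and the same counts were not made over eligible records, so nothing is read from them. The mean CPM was lowest at 100 mGy/h in 26 members on day 8, with the other 5 lowest at 40 mGy/h. On day 4 it was lowest at 100 mGy/h in 18 members, at 40 in 4, at 10 in 8 and at 4 mGy/h in 1. This mean log2 level was highest at 0 mGy/h in 20 members on day 8 and in 16 on day 4. By column totals, every irradiated mean from 0.4 mGy/h on was below that of the same 4 control libraries in 20 members on day 8 and 16 on day 4. On that scale 68.8% of eligible records were lower at 0.4 mGy/h on day 8 and 77.1% at 1 mGy/h, and 57.8% at 0.4 mGy/h on day 4. With TMM factors 23 members were higher and 8 lower at 0.4 mGy/h on day 8, so the day 8 count depends on the scaling.

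On the log2 CPM scale, the median difference from 0 mGy/h over members on day 8 was -0.05 at 0.4, -0.12 at 1, -0.06 at 4, -0.11 at 10, -0.24 at 40 and -0.35 at 100 mGy/h. On day 4 it was -0.02 at 0.4, -0.06 at 1, -0.02 at 4, -0.09 at 10, -0.09 at 40 and -0.15 at 100 mGy/h. Scaling mattered at the low end on day 8. With TMM factors the day 8 medians were 0.02 at 0.4, 0.01 at 1, -0.03 at 4, -0.09 at 10, -0.15 at 40 and -0.29 at 100 mGy/h, so the small drop at 0.4 and 1 mGy/h was seen with column totals only. Over all eligible records, 77.1% were lower at 1 mGy/h than at 0 mGy/h on day 8 by column totals, as were 79.8% at 40 and 66.3% at 100 mGy/h.

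In 23 members all 4 libraries at 100 mGy/h lay below all 4 at 0 mGy/h on day 8, as they did in 15.6% of eligible records. On day 4 this held for 13 members and 3.79% of eligible records. It held on both days for 11 members and for 0.611% of eligible records. At 40 mGy/h the count was 11 members on day 8, against 7.68% of eligible records, and 7 on day 4, against 2.05%. At 10 mGy/h it was none on day 8, against 0.847%, and 8 on day 4, against 3.07%. At 4 mGy/h it was none on either day, against 1.52% on day 8 and 2.05% on day 4. At 1 mGy/h it was 5 on day 8, against 12.7%, and 4 on day 4, against 3.54%, and at 0.4 mGy/h it was 2 on day 8, against 3.67%, and 1 on day 4, against 3.26%. These groups share their 4 control libraries, and the correlation limit made such separation likely, so nothing is read from the counts.

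**Figure D3:**
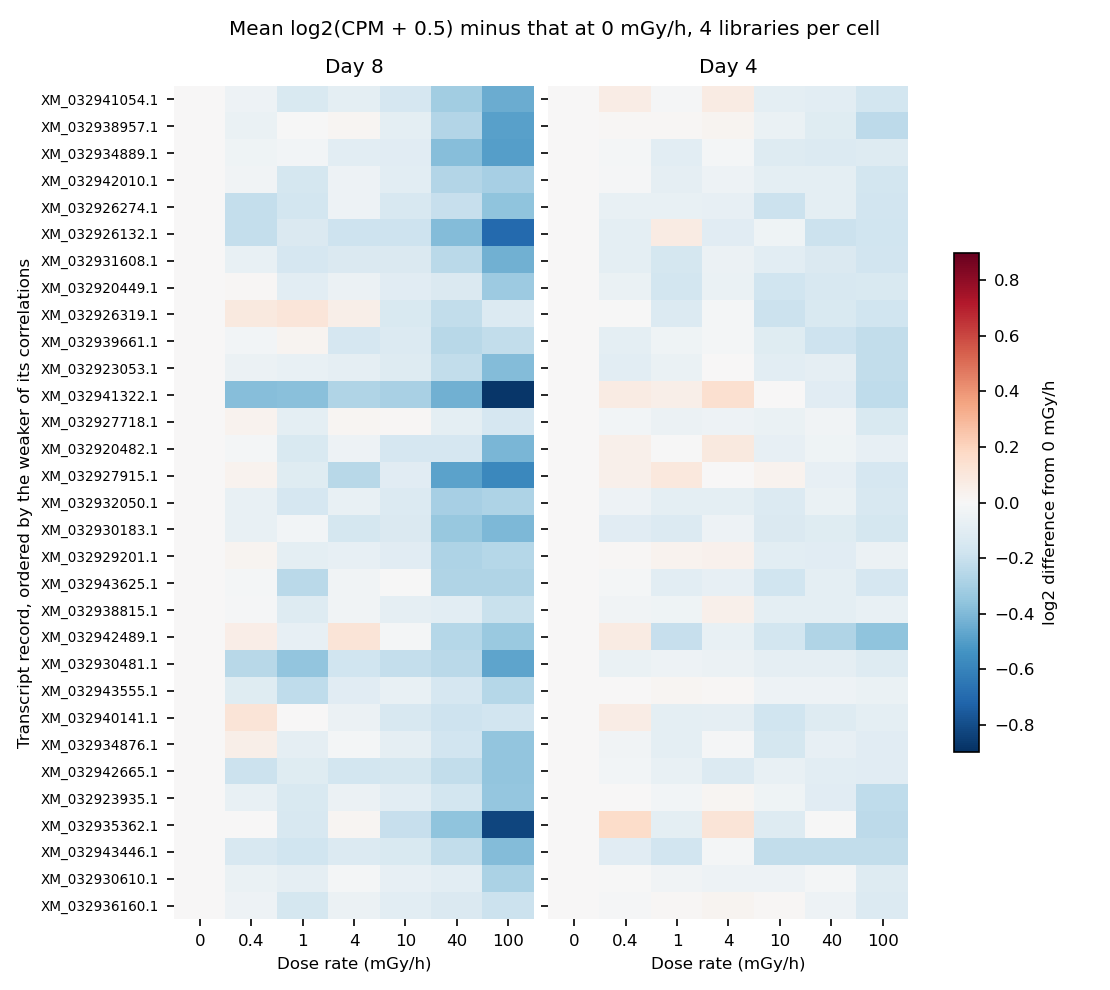
Colour gives the mean log2(CPM + 0.5) of 4 libraries minus that of the 4 at 0 mGy/h of the same day, for each member (lines of the map) and dose rate in mGy/h (columns), with day 8 on the left. Blue is lower than 0 mGy/h. The darkest blue is at 100 mGy/h on day 8 in XM_032941322.1, XM_032935362.1 and XM_032926132.1, and the day 4 map is paler at 100 mGy/h for most members.

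The member with the lowest value of the weaker of its correlations was XM_032941054.1 (correlation -0.68 on day 8 and -0.65 on day 4). Its fall was not steady on day 4, with a mean of 25.6 ± 1.45 CPM at 4 mGy/h, against 24.3 ± 0.862 CPM at 0 mGy/h. On day 8 it had 13.2, 15.3, 18.8 and 15.2 CPM at 100 mGy/h, against 24.2, 21.3, 19.8 and 20.3 CPM at 0 mGy/h. On day 4 it had 23.3, 18.3, 21.9 and 23.0 CPM at 100 mGy/h, against 25.02, 23.2, 24.9 and 23.9 CPM at 0 mGy/h. The groups did not overlap on day 8, while on day 4 the highest library at 100 mGy/h reached the lowest at 0 mGy/h and library 2 lay well below the others. Its log2 fold change at 100 mGy/h was -0.39 ± 0.10 on day 8 and -0.15 ± 0.06 on day 4 (SE, edgeR, as for all fold changes below).

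XM_032938957.1 kept a level near its control up to 4 mGy/h and fell above it on both days. Its day 8 means were 52.2 ± 3.28 CPM at 0, 50.1 ± 4.98 at 0.4, 52.0 ± 2.43 at 1, 52.8 ± 2.93 at 4, 49.0 ± 3.92 at 10, 43.4 ± 3.56 at 40 and 37.1 ± 4.62 CPM at 100 mGy/h. On day 4 they were 49.5 ± 2.38 CPM at 0, 49.8 ± 3.02 at 0.4, 49.9 ± 1.49 at 1, 50.3 ± 1.41 at 4, 47.5 ± 3.14 at 10, 46.0 ± 1.16 at 40 and 42.1 ± 2.44 CPM at 100 mGy/h. Up to 10 mGy/h each mean lay closer to the control mean than the SD of the control libraries. At 100 mGy/h its libraries had 40.8, 30.9, 36.3 and 40.5 CPM on day 8, against 55.2, 47.7, 51.9 and 53.8 CPM at 0 mGy/h, and 43.02, 45.0, 39.5 and 40.8 CPM on day 4, against 50.5, 50.1, 46.1 and 51.4 CPM at 0 mGy/h. No library at 100 mGy/h reached a control library on either day. Differences between the 7 groups made up 73.7% of this member's variance on day 8 and 67.7% on day 4, the largest shares among members.

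The most abundant member was XM_032934889.1 (LOC116927844). On day 8 it had 435, 383, 373 and 370 CPM at 100 mGy/h, against 655, 561, 514 and 484 CPM at 0 mGy/h. The day 4 levels were 427, 429, 403 and 400 CPM at 100 mGy/h, against 463, 447, 446 and 443 CPM at 0 mGy/h. The groups were apart on both days, with a log2 fold change of -0.44 ± 0.11 on day 8 and -0.10 ± 0.04 on day 4. Its day 8 mean was 516 ± 64.0 CPM at 10 mGy/h but 422 ± 36.7 CPM at 40 mGy/h, so most of the drop lay between these dose rates. On day 4 the mean was 420 ± 7.39 CPM at 1 mGy/h, 443 ± 11.995 at 4, 414 ± 14.7 at 10, 412 ± 14.9 at 40 and 415 ± 15.2 CPM at 100 mGy/h, level from 10 mGy/h on.

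XM_032942010.1 met the limits with overlapping groups. It had 83.8, 71.8, 76.5 and 87.9 CPM at 100 mGy/h on day 8, against 104, 87.1, 104 and 98.1 CPM at 0 mGy/h. The day 4 values were 113, 112, 127 and 120 CPM at 100 mGy/h, against 124, 132, 135 and 137 CPM at 0 mGy/h. On each day 1 control library lay within the range of the libraries at 100 mGy/h.

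XM_032926274.1 (LOC116920185) had the lowest day 4 correlation of any member, -0.66. Its day 8 libraries at 100 mGy/h were tightly placed at 60.1, 58.1, 61.3 and 59.1 CPM, against 78.7, 74.9, 80.0 and 73.3 CPM at 0 mGy/h. Day 4 levels were 110, 107, 105 and 98.3 CPM at 100 mGy/h, against 115, 117, 117 and 123 CPM at 0 mGy/h. The groups did not overlap on either day. The fall was not monotonic, since the day 8 mean was 66.1 ± 2.36 CPM at 0.4 mGy/h but 74.6 ± 8.48 CPM at 4 mGy/h, and the day 4 mean was 104 ± 4.50 CPM at 10 mGy/h but 111 ± 5.50 CPM at 40 mGy/h.

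Among the 8 members with the strongest correlations, XM_032926132.1 had the largest fold change at 100 mGy/h on day 8, -0.63 ± 0.18, against -0.17 ± 0.08 on day 4. Its day 8 libraries had 18.5, 21.1, 19.9 and 13.9 CPM at 100 mGy/h, against 33.0, 28.2, 27.4 and 30.7 CPM at 0 mGy/h. The day 4 libraries had 29.8, 27.8, 26.3 and 29.2 CPM at 100 mGy/h, against 34.5, 31.4, 31.8 and 30.7 CPM at 0 mGy/h. Both days were free of overlap, although on day 8 the 4 libraries at 4 mGy/h were spread, with a mean of 27.1 ± 8.07 CPM.

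XM_032931608.1 had the lowest day 8 correlation, -0.74. It had 48.1, 42.2, 45.6 and 50.0 CPM at 100 mGy/h on day 8, against 60.3, 61.7, 63.9 and 64.7 CPM at 0 mGy/h. The day 4 libraries held 58.5, 63.1, 64.1 and 59.4 CPM at 100 mGy/h, against 68.0, 69.6, 71.5 and 67.5 CPM at 0 mGy/h. The groups were apart on both days, with fold changes of -0.36 ± 0.06 on day 8 and -0.16 ± 0.05 on day 4.

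The eighth, XM_032920449.1, had 61.4, 55.4, 59.2 and 54.7 CPM at 100 mGy/h on day 8, against 79.4, 74.3, 63.3 and 73.5 CPM at 0 mGy/h. Day 4 values were 64.7, 57.7, 54.2 and 57.0 CPM at 100 mGy/h, against 68.7, 62.9, 61.6 and 63.6 CPM at 0 mGy/h. Day 8 groups did not overlap, and on day 4 library 1 at 100 mGy/h lay above 3 of the control libraries. Its day 4 mean was lowest at 10 mGy/h, 56.8 ± 3.22 CPM, against 58.4 ± 4.50 CPM at 100 mGy/h.

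**Figure D4:**
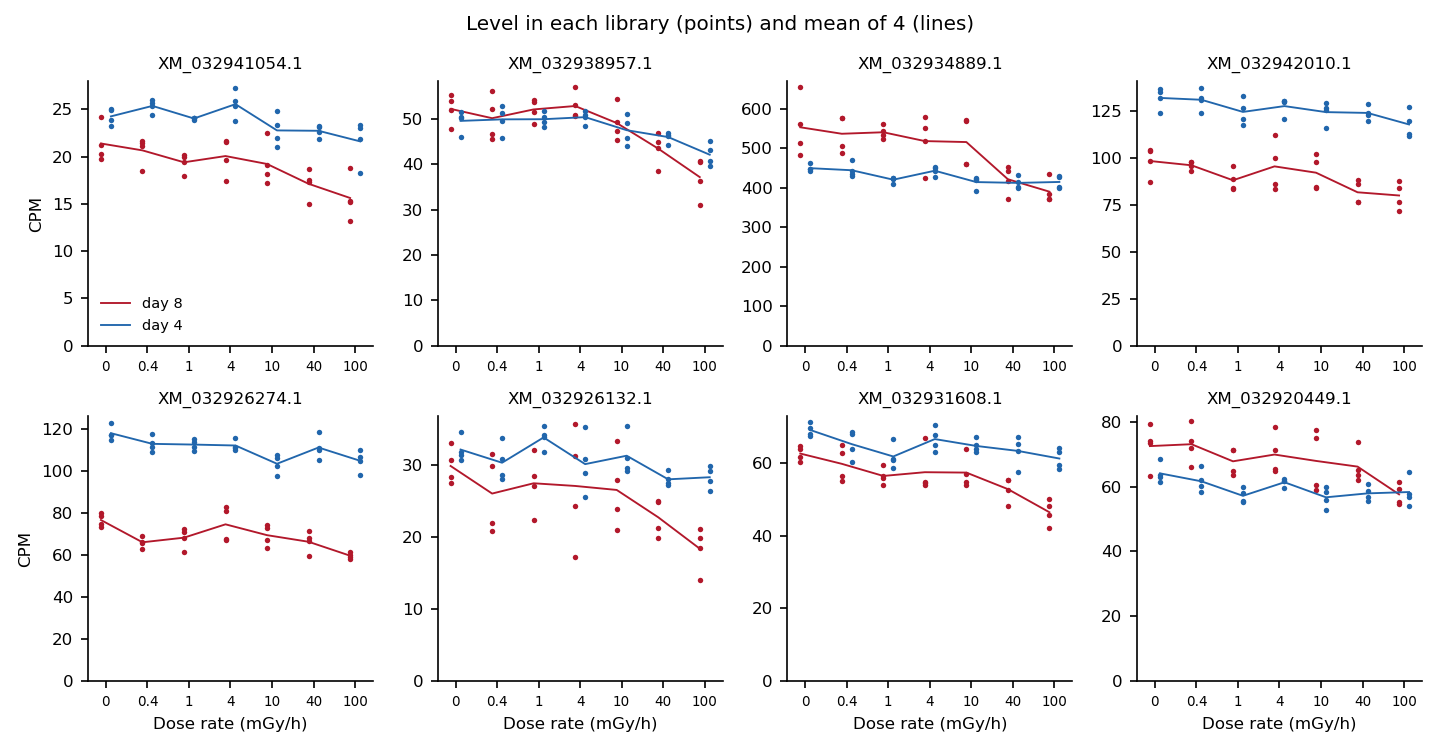
CPM on column totals (vertical axes, from 0) is shown for each library as a point against dose rate in mGy/h (horizontal axes, dose rates spaced evenly and not to scale), with a line through the mean of 4 libraries, for the 8 members with the strongest correlations. Day 8 is red and day 4 is blue. The drop between 10 and 100 mGy/h on day 8 is wider than on day 4 in all 8 panels, as in XM_032931608.1, where the day 8 mean is 57.4 CPM at 10 and 46.5 CPM at 100 mGy/h and the day 4 mean is 64.8 CPM at 10 and 61.3 CPM at 100 mGy/h.

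The largest change at 100 mGy/h on day 8 was that of XM_032941322.1, with a log2 fold change of -0.80 ± 0.18 on day 8 and -0.21 ± 0.09 on day 4. It had 106, 90.8, 121 and 77.3 CPM at 100 mGy/h on day 8, against 204, 164, 163 and 187 CPM at 0 mGy/h. On day 4 the values were 122, 98.3, 117 and 98.0 CPM at 100 mGy/h, against 126, 121, 139 and 123 CPM at 0 mGy/h. The day 8 groups did not overlap, and the day 4 groups did by 1 library. Its day 8 course had a step at each end, with means of 180 ± 19.6 CPM at 0, 138 ± 25.2 at 0.4, 141 ± 33.0 at 1, 150 ± 29.8 at 4, 147 ± 25.03 at 10, 135 ± 31.2 at 40 and 98.7 ± 18.7 CPM at 100 mGy/h. From 0.4 to 40 mGy/h these means differed by less than their SD. It was also the most variable member on day 8, with a pooled SD within groups of 0.28 on the log2 scale.

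XM_032935362.1 came next, with fold changes of -0.78 ± 0.21 on day 8 and -0.23 ± 0.13 on day 4. The day 8 libraries had 10.3, 8.23, 6.49 and 8.66 CPM at 100 mGy/h, against 17.0, 13.8, 16.3 and 13.7 CPM at 0 mGy/h. The day 4 libraries had 9.29, 8.66, 10.4 and 8.74 CPM at 100 mGy/h, against 11.2, 10.4, 10.5 and 11.96 CPM at 0 mGy/h. Day 8 groups lay apart, and day 4 groups met at 10.4 CPM. Most of its day 8 drop fell between 40 mGy/h, with 12.1 ± 3.79 CPM, and 100 mGy/h, with 8.41 ± 1.56 CPM. This member had the largest pooled SD within groups over both days.

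The other member with a fold change of -0.5 or lower on day 8 was XM_032927915.1 (LOC116921570), at -0.55 ± 0.14, against -0.14 ± 0.07 on day 4. Its day 8 libraries had 11.4, 10.1, 9.39 and 10.6 CPM at 100 mGy/h, against 15.6, 15.4, 13.2 and 19.2 CPM at 0 mGy/h. On day 4 they had 26.1, 22.1, 25.3 and 24.7 CPM at 100 mGy/h, against 25.8, 29.1, 28.2 and 26.1 CPM at 0 mGy/h. The groups were apart on day 8 and overlapped on day 4. Its day 8 mean was 14.6 ± 0.951 CPM at 10 mGy/h but 11.1 ± 1.40 CPM at 40 mGy/h.

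The member that fell most on day 4 was XM_032942489.1, which was also the least abundant. On day 8 it had 4.83, 3.76, 4.05 and 4.79 CPM at 100 mGy/h, against 6.35, 6.33, 6.05 and 4.04 CPM at 0 mGy/h. Day 4 libraries had 3.82, 4.29, 3.58 and 4.11 CPM at 100 mGy/h, against 5.98, 4.63, 4.91 and 5.43 CPM at 0 mGy/h. In this member the groups were apart on day 4 and overlapped on day 8, where control library 4 stood below the rest. The fold change was -0.32 ± 0.20 on day 8 and -0.39 ± 0.13 on day 4, so it is 1 of the 4 members with the more negative value on day 4.

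XM_032923053.1 fell on both days without overlap. It had 34.5, 30.4, 34.6 and 36.1 CPM at 100 mGy/h on day 8, against 48.9, 45.4, 45.4 and 39.1 CPM at 0 mGy/h. Its day 4 libraries held 44.9, 44.9, 43.2 and 48.3 CPM at 100 mGy/h, against 55.2, 50.2, 55.7 and 50.9 CPM at 0 mGy/h. The fold change was -0.33 ± 0.07 on day 8 and -0.21 ± 0.04 on day 4. It was the member whose day 8 mean stepped down at all 6 increases in dose rate, with 44.7 CPM at 0, 43.1 at 0.4, 42.6 at 1, 42.3 at 4, 41.2 at 10, 38.1 at 40 and 33.9 CPM at 100 mGy/h.

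XM_032927718.1 (LOC116921431) and XM_032938815.1 (LOC116931245) varied least within groups. XM_032927718.1 had 95.4, 95.1, 93.7 and 93.9 CPM at 100 mGy/h on day 8, against 105, 106, 108 and 101 CPM at 0 mGy/h. Its day 4 values were 110, 110, 108 and 106 CPM at 100 mGy/h, against 115, 121, 113 and 128 CPM at 0 mGy/h. The groups did not overlap on either day although the difference was small, with fold changes of -0.08 ± 0.06 on day 8 and -0.12 ± 0.04 on day 4. XM_032938815.1 had 152, 135, 146 and 137 CPM at 100 mGy/h on day 8, against 166, 156, 167 and 165 CPM at 0 mGy/h. Its day 4 libraries showed 188, 177, 192 and 189 CPM at 100 mGy/h, against 194, 207, 192 and 188 CPM at 0 mGy/h, and there the groups overlapped. Its day 4 fold change was -0.05 ± 0.03.

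XM_032939661.1 (LOC116931971), the least abundant member but for XM_032942489.1, had 9.30, 9.72, 7.16 and 8.38 CPM at 100 mGy/h on day 8, against 11.1, 10.1, 9.21 and 10.1 CPM at 0 mGy/h. Levels on day 4 were 11.2, 9.55, 10.0 and 11.1 CPM at 100 mGy/h, against 13.2, 11.9, 11.8 and 12.3 CPM at 0 mGy/h. The groups overlapped on day 8 and were apart on day 4.

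Not every member was lowest at the top dose rate. XM_032929201.1 and XM_032940141.1 were the 2 members whose mean log2 level was not lower at 100 than at 40 mGy/h on either day. XM_032929201.1 averaged 10.2 ± 0.848 CPM at 100 and 10.1 ± 1.39 CPM at 40 mGy/h on day 8, and 18.9 ± 1.12 CPM at 100 and 18.2 ± 0.719 CPM at 40 mGy/h on day 4. XM_032940141.1 averaged 61.7 ± 8.82 CPM at 100 and 60.6 ± 5.33 CPM at 40 mGy/h on day 8, and 59.3 ± 6.12 CPM at 100 and 58.0 ± 5.09 CPM at 40 mGy/h on day 4. In each case the difference was smaller than the SD. XM_032940141.1 also had the smallest share of variance between groups on day 8, 21.4%.

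XM_032926319.1 had the smallest change of any member at 100 mGy/h on day 8. Its libraries had 16.5, 10.4, 10.5 and 11.97 CPM at 100 mGy/h, against 12.01, 13.1, 15.4 and 12.7 CPM at 0 mGy/h, and library 1 at 100 mGy/h was above all 4 controls. The fold change was -0.04 ± 0.14, and it turned positive without control library 3 (0.0038), without 100 mGy/h library 2 (0.02) or without 100 mGy/h library 3 (0.05). Its day 8 correlation was -0.48. The day 8 means were 13.3 ± 1.47 CPM at 0, 14.1 ± 0.348 at 0.4, 14.4 ± 1.91 at 1 and 13.8 ± 1.59 CPM at 4 mGy/h. Above that they were 12.04 ± 0.698 CPM at 10, 11.4 ± 1.25 at 40 and 12.3 ± 2.88 CPM at 100 mGy/h.

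Among the remaining members, LOC116923680 (XM_032930183.1) had 27.8, 27.2, 31.1 and 30.6 CPM at 100 mGy/h on day 8, against 40.1, 37.5, 40.6 and 36.8 CPM at 0 mGy/h. LOC116915375 (XM_032920482.1) had 28.3, 20.2, 22.8 and 26.0 CPM at 100 mGy/h on day 8, against 34.7, 30.4, 33.8 and 30.5 CPM at 0 mGy/h. Both were without overlap on day 8. On day 4 LOC116915375 stood out for the closeness of its control libraries, with 40.0, 38.1, 41.5 and 41.7 CPM at 100 mGy/h, against 42.4, 42.5, 42.7 and 42.4 CPM at 0 mGy/h.

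LOC116923944 (XM_032930481.1) had 42.04, 37.5, 52.2 and 41.3 CPM at 100 mGy/h on day 8, against 59.4, 59.9, 60.8 and 58.9 CPM at 0 mGy/h. Its irradiated groups were spread while its controls were close, with an SD of 10.3 CPM at 10 mGy/h and of 0.830 CPM at 0 mGy/h. Over the 24 irradiated libraries alone its day 8 correlation was -0.21, the weakest of all members. LOC116927834 (XM_032934876.1) had 29.5, 27.9, 27.8 and 26.8 CPM at 100 mGy/h on day 8, against 40.4, 35.9, 35.8 and 31.8 CPM at 0 mGy/h.

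LOC116925378 (XM_032932050.1) had 59.7, 55.3, 51.5 and 55.9 CPM at 100 mGy/h on day 8, against 71.7, 66.9, 66.4 and 65.0 CPM at 0 mGy/h, and was apart from its controls on day 4 too, with 55.8, 52.9, 56.03 and 55.9 CPM at 100 mGy/h against 60.9, 57.8, 65.5 and 60.03 CPM at 0 mGy/h. LOC116936405 (XM_032943555.1) averaged 46.6 ± 2.78 CPM at 100 mGy/h, against 55.7 ± 3.29 CPM at 0 mGy/h on day 8, and 71.9 ± 2.33 CPM at 100 mGy/h, against 75.04 ± 5.203 CPM at 0 mGy/h on day 4. For LOC116936482 (XM_032943625.1) the day 8 means were 15.8 ± 1.43 CPM at 100 mGy/h, against 19.2 ± 2.68 CPM at 0 mGy/h. Of these, LOC116936405 and LOC116936482 had groups that overlapped on day 4.

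XM_032942665.1 averaged 21.2 ± 3.74 CPM at 100 mGy/h, against 27.0 ± 1.33 CPM at 0 mGy/h on day 8, with overlap by control library 1. XM_032923935.1 averaged 58.3 ± 5.46 CPM at 100 mGy/h, against 74.3 ± 6.65 CPM at 0 mGy/h on day 8, and 73.8 ± 10.3 CPM at 100 mGy/h, against 86.1 ± 2.44 CPM at 0 mGy/h on day 4. Its 4 day 4 libraries at 100 mGy/h ran from 63.2 to 86.5 CPM, so the top of that range lay among the controls.

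At the edge of the rule stood XM_032943446.1, XM_032930610.1 and XM_032936160.1 (LOC116929009), 3 of the 4 members with the weakest correlations. The weaker correlation was -0.42 for XM_032943446.1, the same as for XM_032935362.1, and -0.41 for the other two. On day 8 XM_032943446.1 averaged 12.4 ± 0.995 CPM at 100 mGy/h, against 16.4 ± 1.25 CPM at 0 mGy/h, XM_032930610.1 averaged 43.1 ± 3.97 CPM at 100 mGy/h, against 52.5 ± 2.46 CPM at 0 mGy/h, and XM_032936160.1 averaged 54.7 ± 3.52 CPM at 100 mGy/h, against 62.5 ± 4.10 CPM at 0 mGy/h. Just outside were XM_032936977.1, with -0.57 on day 8 and -0.396 on day 4, XM_032921129.1, with -0.47 on day 8 and -0.396 on day 4, and XM_032927602.1, with -0.46 on day 8 and -0.39 on day 4. For all 3 the day 4 value kept them out.

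Without the controls the fall was less uniform. Over the 24 irradiated libraries of a day, the correlation with dose-rate rank was -0.4 or lower in 23 members on day 8 and in 18 on day 4. The rule applied to irradiated libraries alone was met by 89 records, of which 13 are members. Without the 100 mGy/h libraries it was met by 17 records, of which 7 are members. With TMM-scaled CPM it was met by 33 records, and 22 of the 31 members were among them. Within the 20 day 4 libraries of the smaller class of totals, none of which is at 10 mGy/h, 14 members still met both limits.

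Replicates differed more on day 8. The pooled SD within groups, on the log2 CPM scale, was larger on day 8 than on day 4 in all 31 members, with a median of 0.14 on day 8 and 0.07 on day 4. Over eligible records the median was 0.17 on day 8 and 0.09 on day 4. Differences between the 7 groups made up a median of 49.4% of a member's variance on day 8 and 43.9% on day 4. The same median over eligible records was 27.3% on day 8 and 29.2% on day 4. A larger share in members follows from the way they were chosen.

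Next, the members' variation among replicates was compared, which the rule did not use directly. After each group's mean was removed, the correlation between 2 members over the 28 libraries of a day had a median over 465 pairs of 0.32 on day 8 and 0.08 on day 4. Over pairs of eligible records the medians were 0.15 on day 8 and 0.05 on day 4. With TMM-scaled CPM the members' medians were 0.25 on day 8 and 0.03 on day 4, and leaving out a replicate number at a time gave 0.23 to 0.37 on day 8. On day 8, 25.2% of member pairs were above 0.5, against 17.6% of eligible pairs. These are descriptions over points that share library, depth and scaling.

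The closest pair on day 8 was XM_032934889.1 and XM_032934876.1, at 0.87, the 2 members whose genes LOC116927844 and LOC116927834 both lie on LG7. The most opposed pair was XM_032943555.1 and XM_032940141.1, at -0.60. On average with the other 30, XM_032923935.1 was the most correlated member on day 8, at 0.47, and XM_032940141.1 the least, at -0.02. On day 4 the closest pair was XM_032926274.1 and XM_032923935.1, at 0.63.

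The spread at 4 and 10 mGy/h on day 8 was shared by many members. The summed level of the members was 2055, 2301, 1796 and 1954 CPM in the 4 libraries at 4 mGy/h and 2101, 1796, 2208 and 1820 CPM in those at 10 mGy/h. Library 2 at 4 mGy/h and library 3 at 10 mGy/h were the high ones. By column totals, the members' mean log2 level relative to control was 0.11 in that library at 4 and 0.04 in that at 10 mGy/h. In each of the other 22 irradiated libraries of day 8 it was below 0 on that scale. The same level was not computed with TMM factors. With those, 23 members were higher and 8 lower at 0.4 than at 0 mGy/h on day 8.

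The members were also set against the main axis of variation among the eligible records on each day. The leading principal component held 27.2% of the variance on day 8, and the median absolute correlation of a member with it was 0.23, with a range from 0.0058 to 0.62, against a median of 0.39 over eligible records. On day 4 it held 35.2% of the variance, and the members' median was 0.14, with a range from 0.0021 to 0.69, against 0.18 over eligible records.

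A comparison that the dose-rate correlations did not use is that of day 8 with day 4 in the 48 irradiated libraries. The rule bounded the day difference in unirradiated animals, so the size of the day difference is restricted, but its direction is not fixed. That bound was set on CPM from column totals. On that scale the median difference over all transcripts in irradiated libraries was -0.40, against 0.00 with TMM factors. With TMM factors the bound thus leaves more room for a rise than for a fall. The shares over all transcripts given below are without the bound, so nothing is read from the balance of directions. The edgeR test took the mean over the 6 irradiated dose rates of the day 8 minus day 4 log2 difference, over 9561 transcripts with TMM factors from all libraries. Of the 31 members, 19 were called higher and 10 lower on day 8, where 40.7% of all transcripts were called higher and 41.1% lower. In either direction this is 29 of 31 members, against 81.8% of all transcripts. The 2 that were not called were XM_032941054.1, with 0.05 ± 0.03 (SE, edgeR adjusted p = 0.159), and XM_032926132.1, with 0.09 ± 0.06 (SE, edgeR adjusted p = 0.154). XM_032930610.1, with 0.05 ± 0.02, was called at an edgeR adjusted p of 0.04997.

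The largest rise was that of XM_032935362.1. In TMM-scaled CPM it had a median of 15.2 on day 8, with a range from 7.16 to 20.9, against a median of 9.29 on day 4, with a range from 7.52 to 13.3, over 24 irradiated libraries each. The ranges overlapped, and the day 8 mean was the higher at 6 of 6 dose rates. The log2 difference was 0.64 ± 0.07 (SE, edgeR adjusted p = 1.10e-10). XM_032942489.1 had a median of 6.35 CPM on day 8, with a range from 3.86 to 8.25, against a median of 3.98 CPM on day 4, with a range from 2.94 to 5.30. Its log2 difference was 0.60 ± 0.07 (edgeR adjusted p = 1.18e-10), again higher at 6 of 6 dose rates.

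XM_032934889.1 had a median of 569 TMM-scaled CPM on day 8, with a range from 409 to 719, against 369 on day 4, with a range from 345 to 415. All but 2 of its 24 irradiated day 8 libraries lay above every day 4 library. The log2 difference was 0.58 ± 0.04 (edgeR adjusted p = 1.74e-19).

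Of the members that fell with day, XM_032927915.1 fell most. Its median was 15.3 TMM-scaled CPM on day 8, with a range from 10.4 to 23.1, against 23.9 on day 4, with a range from 19.4 to 27.5. The log2 difference was -0.65 ± 0.05 (edgeR adjusted p = 4.30e-17). For XM_032942665.1 the median was 27.3 CPM on day 8, with a range from 20.2 to 32.7, against 38.6 CPM on day 4, with a range from 34.0 to 43.8, so the days did not overlap. Its log2 difference was -0.51 ± 0.03 (edgeR adjusted p = 2.32e-18). XM_032929201.1 had a median of 13.1 CPM on day 8, with a range from 10.1 to 20.8, against 16.9 CPM on day 4, with a range from 14.96 to 18.9. It had a log2 difference of -0.36 ± 0.05 (edgeR adjusted p = 1.72e-08), and 20 of its 24 day 8 libraries lay below every day 4 library while 1 lay above every one. All 3 were lower on day 8 at 6 of 6 dose rates.

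The direction of the day difference depended on the scaling for 14 members. With column totals in place of TMM factors, a choice added after the data were seen, the median over all transcripts tested was -0.40, against 0.00 with TMM factors, and the members' median was -0.30, against 0.10. The called members were then 6 higher and 22 lower, where 18.3% of all transcripts were called higher and 69.0% lower. The 6 called higher and 10 called lower under both scalings include the 6 members described above, whose column-total differences were 0.24 for XM_032935362.1, 0.20 for XM_032942489.1, 0.19 for XM_032934889.1, -1.04 for XM_032927915.1, -0.91 for XM_032942665.1 and -0.76 for XM_032929201.1. A further 10 members were called higher with TMM factors and lower with column totals. The part that the larger share of a few abundant records on day 8 plays in this was not tested. The days also differ in their count table, which cannot be told apart from age or exposure.

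**Figure D5:**
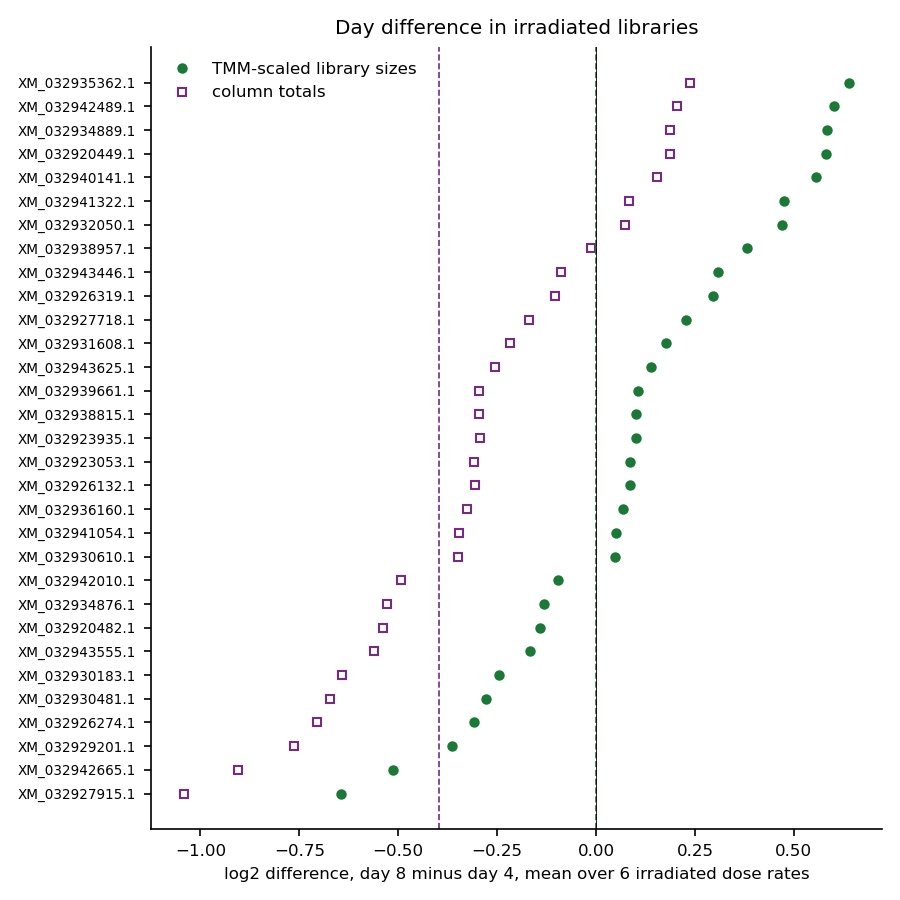
For each member (vertical axis, ordered by the TMM-scaled value), the horizontal axis gives the log2 difference of day 8 minus day 4 averaged over the 6 irradiated dose rates, with TMM factors as filled green circles and with column totals as open purple squares. The purple dashed line marks the median of all transcripts tested with column totals, -0.40, and 14 members have their circle and square on opposite sides of 0.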

How the data were processed

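Messenger RNA libraries of 56 whole-body Daphnia magna samples were read in pairs on a DNA nanoball sequencer, per the labels' protocols. The values used are the whole-number read counts per transcript record that the authors deposited, not normalized, as 2 tables of 28 libraries, 1 per day. HISAT is named per the submitters' processing notes. Its version, the counting program, the genome build, the use of strand and the handling of reads shared between records are not given in the sources used here. Each of the 56 columns carries the code of 1 sample's label.

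CPM was computed from column totals. Members, tests and named transcripts were chosen with earlier results of these data known. Counts were fitted in R 4.3.3 with edgeR 4.0.16 (filterByExpr, TMM factors, glmQLFit and glmQLFTest, 2-sided). For each day, models with a coefficient per dose rate and with a slope on dose-rate rank used all 28 libraries, and the day difference used all 56 with a coefficient per group. Adjustment was by Benjamini-Hochberg over all transcripts tested, and a call needed an adjusted p under 0.05. Standard errors were taken from the fold change and the F statistic. The fits were tested on simulated counts. Alternatives were DESeq2 1.42.0 with its size factors, no filter, a replicate block, surrogate variables (sva 3.50.0), the dose rate as covariate, column totals and leaving out libraries. No 2 libraries of a day agreed within sampling noise, with a chi-square over its degrees of freedom of at least 24.1 on day 8 and 6.85 on day 4.

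The rule for members described by library took the 8 with the lowest weaker correlation, 5 with the largest change shared by both days (mean count of at least 50), the 4 most and 2 least abundant, the 3 largest day differences each way, the 3 at the limit, the least and most variable, and those not lower at 100 than at 40 mGy/h. Others were chosen after their values were seen. Symbols matched 14015 of 23570 records (59.5%) with the version ignored and 101 with it. Planned descriptions of protein and promoter sequence and of gene lists by function were not made, since the table used here holds no sequences or descriptions.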

Additional observations from a re-analysis of the deposited data

Results flagged for a closer look

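Each member's 4 libraries in a group, and the 4 summed levels, were checked for a library set apart from the other 3 by Dixon's gap-to-range ratio at the 95% level. Of 448 groups checked, 24 had such a library, and chance gives about 1 in 20 groups, 22.4 of 448. Of the 24, 15 stood high and 9 low. No explanation was tested for any of them.

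Those that bear on the contrast of 100 with 0 mGy/h come first. The summed level of the members was 2324 CPM in control library 1 of day 8, against 2057 to 2099 CPM in the other 3. XM_032936160.1 had 59.99 CPM in library 3 at 100 mGy/h on day 8, against 52.7 to 53.3 CPM. On day 4 at 100 mGy/h, XM_032932050.1 had 52.9 CPM in library 2, against 55.8 to 56.03 CPM, and XM_032930481.1 had 72.7 CPM in library 2, against 77.3 to 77.5 CPM. In the day 8 controls, XM_032938815.1 had 156 CPM in library 2, against 165 to 167 CPM, and XM_032942489.1 had 4.04 CPM in library 4, against 6.05 to 6.35 CPM. In the day 4 controls, XM_032930481.1 had 92.1 CPM in library 2, against 78.6 to 80.9 CPM, and XM_032940141.1 had 66.6 CPM in library 1, against 61.0 to 62.0 CPM.

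At 40 mGy/h on day 8, XM_032941322.1 had 88.8 CPM in library 2, against 148 to 154 CPM. There XM_032927915.1 had 13.2 CPM in library 1, against 10.4 to 10.5 CPM, and XM_032929201.1 had 12.2 CPM in library 2, against 9.33 to 9.62 CPM. At 10 mGy/h on day 8, XM_032920482.1 had 34.2 CPM in library 3, against 27.1 to 27.9 CPM. At 4 mGy/h on day 8, library 2 was high for XM_032931608.1, with 67.0 against 53.9 to 54.7 CPM, and for XM_032927718.1, with 110.4 against 104.6 to 105.2 CPM, while library 4 was low for XM_032943625.1, with 17.0 against 19.2 to 19.4 CPM.

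At 1 mGy/h on day 8, XM_032930183.1 had 42.8 CPM in library 3, against 36.1 to 36.9 CPM, and XM_032940141.1 had 87.2 CPM in library 1, against 62.4 to 66.4 CPM. At 0.4 mGy/h on day 8, XM_032934876.1 had 40.8 CPM in library 2, against 36.0 to 36.4 CPM. On day 4 at 4 mGy/h, XM_032942010.1 had 120.5 CPM in library 1, against 129.7 to 130.1 CPM, and XM_032943446.1 had 17.4 CPM in library 1, against 16.6 to 16.8 CPM.

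Also on day 4, at 1 mGy/h, XM_032927915.1 had 28.2 CPM in library 4, against 29.5 to 29.7 CPM, and XM_032930481.1 had 84.6 CPM in library 1, against 78.4 to 79.0 CPM. XM_032942665.1 had 45.4 CPM in library 4 of that group, against 44.2 to 44.3 CPM, and XM_032943446.1 had 12.3 CPM in library 2, against 16.1 to 16.2 CPM.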

How the results depend on the processing

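With surrogate variables as covariates, 8 members and 83 of all transcripts had a falling day 8 slope called, in place of 15 and 307. DESeq2 called 17 members and 380 of all transcripts lower at 100 mGy/h on day 8, in place of 11 and 131. On day 4 the 2 called slopes, of 14 over all transcripts, became 1 of 8 with no filter, 1 of 13 with the replicate block, 5 of 57 with the dose rate itself as covariate, 4 of 34 with DESeq2 and 0 of 5 in the smaller class of library totals. The 1 call of 19 at 100 mGy/h on day 4 became 3 of 36 with column totals and 4 of 48 with DESeq2. The cause of these changes was not tested.

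Leaving out libraries gave 9 to 17 slopes on day 8, 2 to 17 calls at 100 mGy/h on day 8, 0 to 2 slopes and 0 to 3 calls on day 4, and 26 to 29 calls of the day difference, with 10 to 10 lower. It gave 24 to 44 records meeting the rule, 22 to 31 members still meeting it, and median correlations between members of 0.226 to 0.373 on day 8 and 0.0341 to 0.112 on day 4. The rule was met by 89 records, with 13 of the members, in irradiated libraries only, by 17 records, with 7 of the members, without the 100 mGy/h libraries, and by 14 members in the smaller day 4 class.

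Column totals in place of TMM factors gave 22 members called lower on day 8 than on day 4, in place of 10, where 69.0% of all transcripts were called lower, against 41.1% with TMM factors. The day difference of these members changed sign: XM_032941054.1 (-0.35), XM_032938957.1 (-0.0130), XM_032926132.1 (-0.31), XM_032931608.1 (-0.22), XM_032926319.1 (-0.10), XM_032939661.1 (-0.29), XM_032923053.1 (-0.31), XM_032927718.1 (-0.17), XM_032943625.1 (-0.26), XM_032938815.1 (-0.30), XM_032923935.1 (-0.29), XM_032943446.1 (-0.0878), XM_032930610.1 (-0.35) and XM_032936160.1 (-0.33). The fold change at 100 mGy/h ran from -0.122 to 0.0078 over fits without a library for XM_032929201.1 on day 4, positive without control library 2. For XM_032926319.1 on day 8 it ran from -0.223 to 0.0481, positive without control library 3, 100 mGy/h library 2 (0.0227) or 100 mGy/h library 3.

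Whether replicate numbers pair the samples was not settled. With the group means removed, same-numbered libraries at 100 and 0 mGy/h correlated above 0.1 in 2 of 4 pairs on day 8 and in 0 of 4 on day 4. With the replicate block the counts were 27 for the day difference, 14 for the slope on day 8 and 1 for that on day 4, and at 100 mGy/h 8 on day 8 and 1 on day 4. Depth did not limit detection, as every member had at least 48 counts in every library.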
